A study of Rattus norvegicus with 20 samples.

Results

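The proteasome genes of rat hindlimb muscle were followed by RNA sequencing through ischemia of the limb in a fast and a slow muscle. They were taken from the expression table by name, as every gene whose symbol starts with Psma to Psmg followed by a digit and that reached 1 FPKM (a level scaled by transcript length and sequencing depth) in at least 5 of the 20 libraries. Of 49 genes with such a name, 48 passed, out of 11693 genes that passed the same filter and 21926 in the table. Psmb11, the catalytic subunit of the thymus, was the gene that failed, with 0 to 0.073 FPKM. The animals were Sprague Dawley rats, and 4 groups of 5 libraries each were made: gastrocnemius after hindlimb ischemia, gastrocnemius after a sham operation, soleus after hindlimb ischemia and soleus after a sham operation. The ischemia, labelled PAD for peripheral artery disease, was made by occluding the iliac and femoral arteries with a catheter. The sources used here state neither the age of the rats nor the time between operation and sampling. The labels do not say whether the 5 libraries of a group are 5 animals or whether a number shared by 2 groups is the same rat, so the p-values measure the spread between these libraries.

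The proteasome is the large protease that degrades proteins tagged with ubiquitin. Its core particle stacks rings of alpha subunits, which gate the entry, around rings of beta subunits, of which Psmb5, Psmb6 and Psmb7 cut the protein chain. The regulatory particle binds the ubiquitin chain, and its ring of ATPases unfolds the substrate and feeds it into the core. In skeletal muscle this pathway breaks down contractile proteins, and it is best known there for its part in atrophy. Interferons induce the alternative catalytic subunits Psmb8, Psmb9 and Psmb10, which replace Psmb5, Psmb6 and Psmb7 in that order in newly built immunoproteasomes.

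By role the 48 genes were 7 alpha and 10 beta subunits of the core, 6 ATPases of the regulatory particle (Psmc), 14 genes named as its non-ATPase members (Psmd), 4 activators (Psme), the inhibitor Psmf1 and 4 assembly chaperones of the core (Psmg). Of the 14 Psmd genes, 11 encode subunits, and Psmd5, Psmd9 and Psmd10 encode assembly chaperones of the regulatory particle. The remaining 2, Psmc3ip and Psme3ip1, are named for proteins that interact with a member and are no part of the particle. The genes lie on 18 chromosomes. Overlapping gene models were found for 9 of them, and for 5 of these, Psmb5, Psmc1, Psmc5, Psme3 and Psme3ip1, the partner is on the same strand, so their counts are uncertain to that extent. RefSeq names 44 pseudogenes for 18 of the 48 genes, Psmd8 and Psmb6 included, and the sources used here do not say how reads were divided between such copies. The near-identical copies of Psmb6, Psma3l and Psme1 that the table lists stayed at or under 2.35 FPKM in every library.

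Promoters are printed for Psmb10, one of the interferon-inducible subunits, and for 3 of 5 genes called lower in ischemic soleus. Those calls are of edgeR's quasi-likelihood test (adjusted p under 0.05) without 1 library, sham soleus 4. With all 20 libraries the test called 0 of the 48 there. Each sequence is the 250 bases before the transcription start in RefSeq, build GRCr8, written 5′ to 3′ on the strand of the gene. Capitals mark matches, on either strand, to 1 of 4 motifs: TGACNNNGC, the antioxidant response core bound by Nfe2l1 and Nfe2l2; CCAAT, bound by NF-Y; GGGCGG, bound by Sp1; and the interferon-stimulated response element, taken as GAAA and GAAA with any 2 bases between them.
Psmb5, chr15:32047380-32047629, minus strand: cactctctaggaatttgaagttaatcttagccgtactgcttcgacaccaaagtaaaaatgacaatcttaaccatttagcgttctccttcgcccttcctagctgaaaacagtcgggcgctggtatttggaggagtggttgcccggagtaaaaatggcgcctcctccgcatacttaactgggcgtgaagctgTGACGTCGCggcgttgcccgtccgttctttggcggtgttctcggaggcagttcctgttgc
Psmc5, chr10:91687303-91687552, plus strand: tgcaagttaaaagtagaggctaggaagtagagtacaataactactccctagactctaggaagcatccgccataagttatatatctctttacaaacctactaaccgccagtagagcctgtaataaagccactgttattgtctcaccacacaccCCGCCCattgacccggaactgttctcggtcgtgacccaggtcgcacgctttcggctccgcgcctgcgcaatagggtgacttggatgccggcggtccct
Psmd8, chr1:93608690-93608939, minus strand: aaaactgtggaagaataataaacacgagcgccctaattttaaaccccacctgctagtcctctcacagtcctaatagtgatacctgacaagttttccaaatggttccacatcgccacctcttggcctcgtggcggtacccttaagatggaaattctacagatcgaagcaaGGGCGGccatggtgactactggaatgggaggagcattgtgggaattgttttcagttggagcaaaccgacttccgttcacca
Psmb10, chr19:50743293-50743542, minus strand: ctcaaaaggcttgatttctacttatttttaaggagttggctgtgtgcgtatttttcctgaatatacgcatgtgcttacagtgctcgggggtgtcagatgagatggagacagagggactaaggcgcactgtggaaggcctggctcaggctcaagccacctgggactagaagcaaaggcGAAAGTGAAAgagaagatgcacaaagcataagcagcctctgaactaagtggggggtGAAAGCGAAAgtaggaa

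RefSeq held a promoter for 43 of the 48 genes. The antioxidant response core stood in 6 of the 43 (14%), against 10.1% of 33469 promoters of the same length. The interferon-stimulated element stood in 5 (11.6% against 3.41%), namely Psma4, Psmb3, Psmb10, Psmd7 and Psme2. GGGCGG was found in 29 (67.4% against 30.5%) and CCAAT in 21 (48.8% against 34%). Of the 5 genes called lower in ischemic soleus without sham soleus 4, Psmb5 held the antioxidant response core, and Psmc5 and Psmd8 held GGGCGG. Psmc1 held CCAAT, and Psmc2 held none of the 4 motifs in this window. The matches to the antioxidant response core are printed because Nfe2l1 is the known activator of proteasome genes; the bases of the match are in capitals, on the strand on which they read as TGACNNNGC, which for Psme4 and for the first of 2 matches of Psmd9 is the strand opposite to the gene.
Psmb2, chr5:144254982-144255006: cgcgccaaTGACCGGGCggtcgcat
Psmb5, chr15:32047423-32047447: tgaagctgTGACGTCGCggcgttgc
Psmb6, chr10:55737856-55737880: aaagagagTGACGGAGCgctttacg
Psmd1, chr9:94157798-94157822: cagatctaTGACCTCGCgagaatta
Psmd9, chr12:39018372-39018396: ttttcagaTGACCCGGCagagctaa
Psmd9, chr12:39018325-39018349: gtttccggTGACCTCGCcccacctc
Psme4, chr14:108706580-108706604: cgaggaggTGACCCAGCggctttct

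The libraries held 53.6 to 85.4 M counts. Fibre type genes were set against the muscle labels: in sham rats 7 of 7 slow fibre markers were lower and 6 of 6 fast fibre markers higher in gastrocnemius than in soleus (edgeR's quasi-likelihood test, adjusted p under 0.05). One library, sham soleus 4, stood apart, and proteasome genes were among those in which it did. Counts are given as CPM, scaled to library size with TMM factors, and that library's factor was 0.495, against 0.863 to 1.27 in the other 19. In it 36 of the 48 proteasome genes lay above all 4 other sham soleus libraries and 8 lay below all of them, with a median log2 ratio of 0.86, while the median over all genes tested was −0.04. All 10 beta subunits were above, with a median log2 ratio of 2.19 and the highest value, 2.82, for Psmb5. The alpha subunits split into 4 above and 3 below. The lowest value, −1.66, was that of Psme4, which has the longest transcript of the 48. The 16 genes with the shortest transcripts (558 to 1114 bases, as implied by counts and FPKM) had a median log2 ratio of 1.47, the next 16 one of 0.95 and the 16 with the longest (1689 to 7461 bases) one of 0.30. Across the 48 genes Spearman's rho between ratio and length was −0.49, and across all 11693 genes it was −0.43; genes are not independent replicates, and all points share the same libraries. The main results that rest on sham soleus are therefore given with and without this library.

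**Figure D1:**
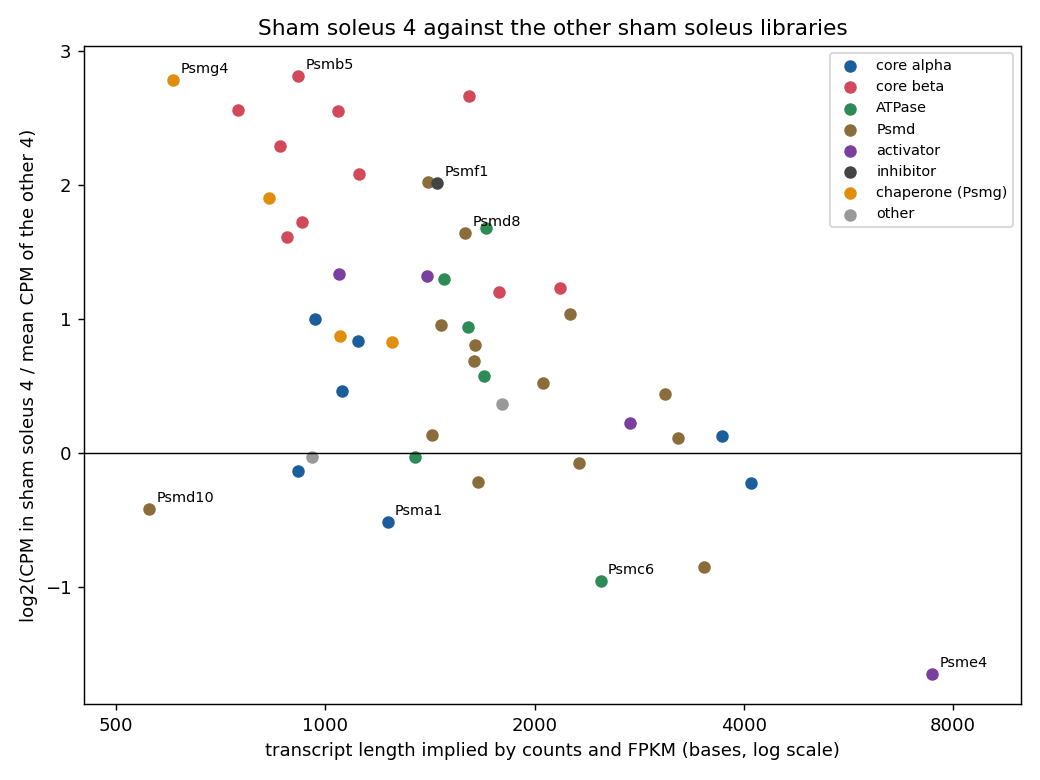
Log2 ratio of the CPM of each proteasome gene in sham soleus library 4 to the mean of the other 4 sham soleus libraries, plotted against transcript length, coloured by role. The beta subunits all lie above 0 and reach 2.82, the longest transcript, Psme4, lies at −1.66, and the median of the 48 genes is 0.86.

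As an RNA level per transcript length, the subunits differed several-fold among themselves: in ischemic gastrocnemius the alpha subunits ran from 16.5 to 84.6 FPKM and the ATPases from 26.8 to 77.5 FPKM. The lowest of the Psmd genes there was Psmd10, with 3.16 FPKM. In ischemic gastrocnemius the highest mean levels were 84.6 ± 5.47 FPKM (SD, n = 5) for Psma7, 78.7 ± 8.35 for Psmb1, 77.5 ± 10.2 for Psmc5 and 74.99 ± 11.1 for Psmd2. In sham gastrocnemius the same 4 genes led, with 97.0 ± 6.76 FPKM for Psma7, 94.6 ± 7.03 for Psmc5, 92.9 ± 12.4 for Psmb1 and 90.98 ± 12.9 for Psmd2. In ischemic soleus Psmb1 led with 105 ± 9.42 FPKM, followed by Psmb4 with 99.4 ± 9.11, Psmd2 with 80.4 ± 4.74 and Psmc1 with 77.8 ± 3.42. In sham soleus without library 4 Psmb1 led with 95.2 ± 6.74 FPKM (n = 4), followed by Psmb4 with 91.6 ± 2.34, Psmc5 with 86.3 ± 5.80 and Psmc1 with 85.2 ± 3.94. Neighbours in these orders differed by less than the larger of their SDs, except for the step between Psmb4 and Psmd2 in ischemic soleus. The median over the alpha subunits was 40.2 FPKM in ischemic gastrocnemius, 44.4 in sham gastrocnemius, 57.9 in ischemic soleus and 52.2 in sham soleus without library 4. FPKM carries no TMM factors, so these levels order genes within a group and do not compare groups. On log2(FPKM + 1) the median over all genes was itself 0.31 higher in ischemic than in sham soleus, with all libraries. The ATPases had medians of 55.3, 64.4, 59.1 and 62.1 FPKM in the same order of groups. The chaperones, which guide assembly and are absent from the finished particle, were lower, at 5.17 to 20.01 FPKM in ischemic gastrocnemius and 4.96 to 23.7 FPKM in sham gastrocnemius, with Psmg1 the highest of the 4. At the bottom of every group stood Psmb9, with 0.872 FPKM in ischemic gastrocnemius, 0.792 in sham gastrocnemius, 1.79 in ischemic soleus and 1.05 in sham soleus without library 4.

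**Figure D2:**
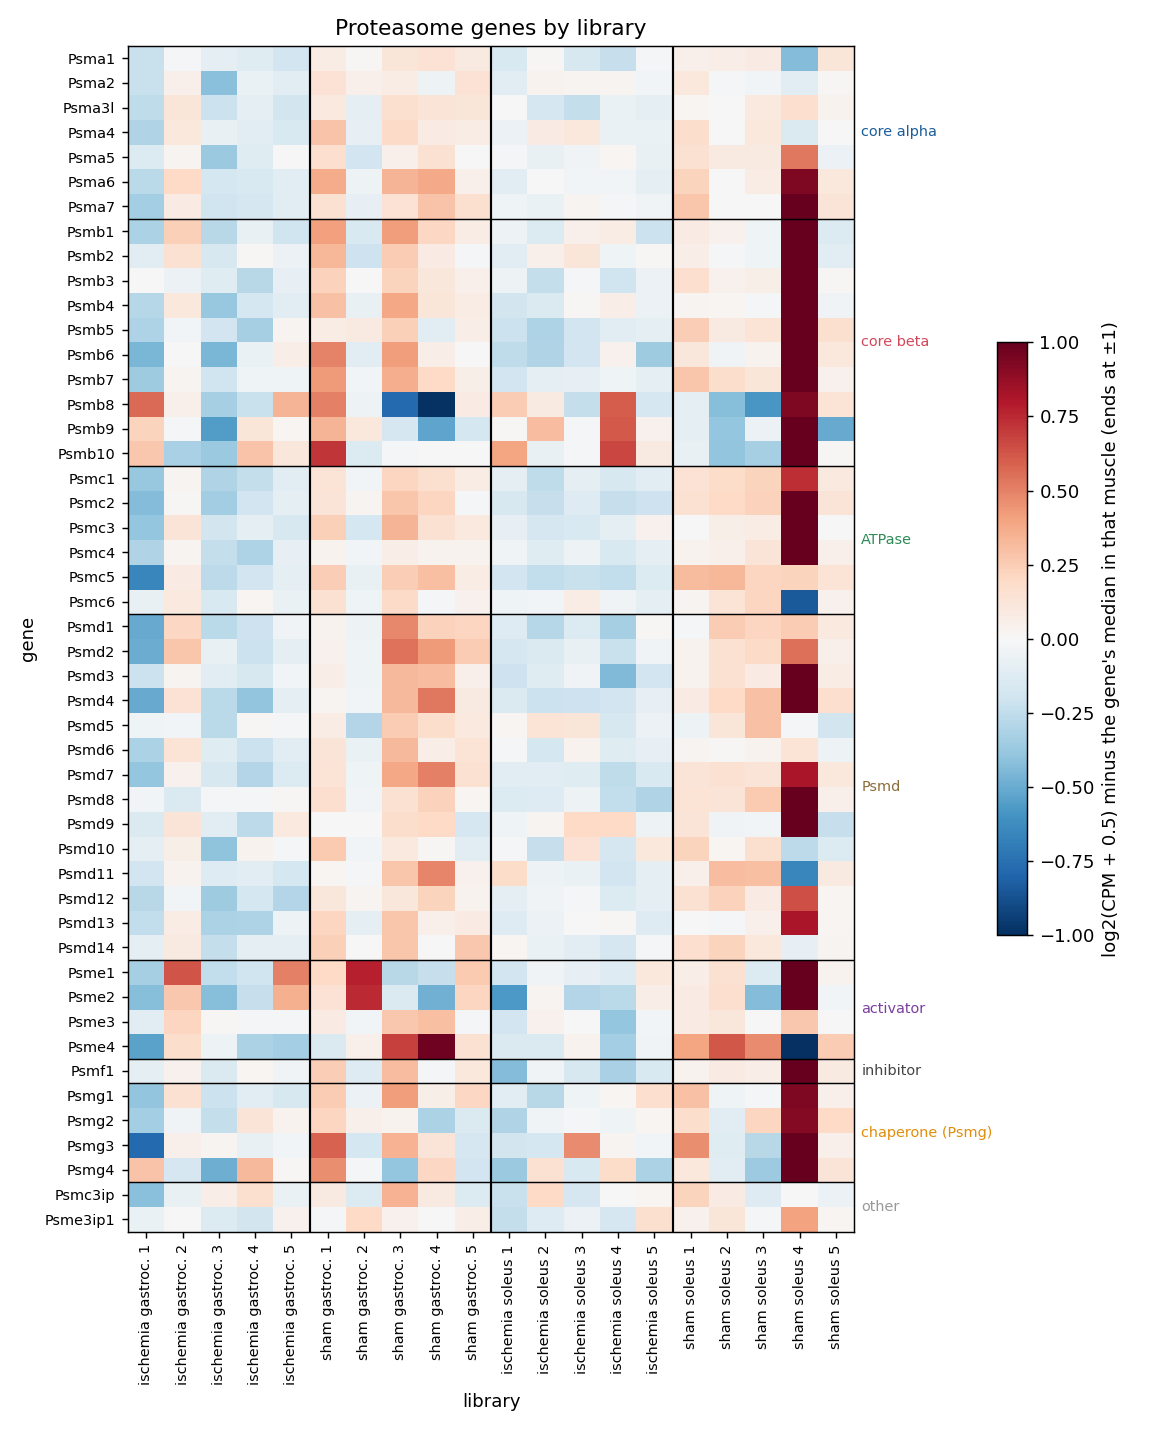
Log2(CPM + 0.5) of each of the 48 proteasome genes (rows, by role) in each of the 20 libraries (columns, by group), as the difference from the gene's median in the same muscle. Most rows are below the median in ischemic soleus, where 6 to 13 of the 48 genes lie above it per library, and above the median in sham soleus, where 32 to 42 do. The CPM carry TMM factors, and the count was not made over all genes. With library totals in place of TMM factors, the median log2 fold change of the 48 in soleus was 0.07.

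In soleus without sham soleus 4, 43 of the 48 proteasome genes had log2 fold changes below 0 after ischemia (51.6% of all genes tested did), by small amounts, and 5 passed the test. Those 5 were Psmc1, Psmc2 and Psmc5, ATPases of the ring that unfolds substrates, Psmd8, a non-ATPase subunit of the regulatory particle, and Psmb5, the beta subunit with chymotrypsin-like activity. The number of the 48 genes above their own soleus median was 6, 12, 13, 13 and 12 in the ischemic soleus libraries, against 42, 35, 32, 39 and 36 in the sham ones. The groups did not overlap in that count, and sham soleus 4, with 39, was within the range of its group. The count was made on CPM with TMM factors and not over all genes, so no share stands beside it. With library totals in place of TMM factors and all 20 libraries, 29 of the 48 had log2 fold changes above 0. Because the RNA is from whole muscle, fewer cells of a type and less RNA per cell cannot be told apart.

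Psmc2 (chr4, 9867101 to 9881484, in the files' build, which is not given) had 77.8, 74.2, 79.7, 74.1 and 75.5 CPM in ischemic soleus, against 97.0, 100, 102, 189.8 and 95.4 CPM in sham soleus, where 189.8 is library 4. Every ischemic library was below every sham library. Without library 4 the means were 76.3 ± 2.43 CPM (SD, n = 5) in ischemic soleus and 98.6 ± 3.04 CPM (n = 4) in sham soleus. The log2 fold change was then −0.37 (SE 0.09, edgeR adjusted p = 0.0275). With all 20 libraries it was −0.62 (SE 0.17, adjusted p = 0.0590).

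Psmc5 (chr10, 94445877 to 94451811) had 79.2, 76.0, 77.5, 76.3 and 82.1 CPM in ischemic soleus, against 113, 114, 105, 105 and 99.5 CPM in sham soleus. It was the called gene least touched by library 4, whose value of 105 CPM was inside the range of the others, and the groups did not overlap. Its log2 fold change was −0.46 both without that library (SE 0.12, edgeR adjusted p = 0.0309) and with it (SE 0.13, adjusted p = 0.0594). Psmc1 (chr6, 124123228 to 124135658) had 111, 99.8, 111, 106 and 109.8 CPM in ischemic soleus, against 132, 135, 139, 198 and 127 CPM in sham soleus. The groups did not overlap here either, and the log2 fold change without library 4 was −0.31 (SE 0.08, adjusted p = 0.0415), against −0.44 (SE 0.13, adjusted p = 0.0637) with all libraries. Of the 6 ATPases, 3 were called without library 4 and none with all 20 libraries.

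Psmd8 (chr1, 88116812 to 88123643) had 63.5, 63.7, 67.4, 58.6 and 56.6 CPM in ischemic soleus, against 76.9, 76.3, 83.7, 241 and 72.2 CPM in sham soleus. Psmb5 (chr15, 33259043 to 33263659) had 45.1, 42.4, 46.0, 48.8 and 49.4 CPM in ischemic soleus, against 62.4, 55.8, 57.8, 413 and 58.6 CPM in sham soleus. For both genes all ischemic values lay under all sham values, and library 4 was several times its group. Without it the log2 fold change of Psmd8 was −0.32 (SE 0.08, adjusted p = 0.0275) and that of Psmb5 was −0.34 (SE 0.09, adjusted p = 0.0382). With all libraries those values were −0.83 (SE 0.26, adjusted p = 0.0679) for Psmd8 and −1.48 (SE 0.44, adjusted p = 0.0638) for Psmb5, so the size of these 2 changes depends on library 4.

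Over the 48 genes, the test called 0 with all 20 libraries, while it called 1.03% of all genes tested in either direction and 0.505% as lower. The same fit had 23 of the 48 lower at an unadjusted p under 0.05 (17.4% of all genes) and none higher, and in 16 the ischemic libraries lay under all sham ones (6.62% of all genes). DESeq2 called 10 as lower (7.08% of all genes), and a limma-voom fit with a quality weight for each library called 16 (12.3% of all genes). Without sham soleus 4, edgeR called 5 as lower, against 3.52% of all genes lower and 6.15% in either direction, and called none higher. At an unadjusted p under 0.05 it had 18 lower (13.2% of all genes) and 1 higher. The libraries of 19 genes did not overlap, ischemia being lower (11.7% of all genes), and of 1 gene, Psmb9, with ischemia higher (11% of all genes). The median log2 fold change of the 48 was −0.15 without library 4, against −0.01 over all genes, and −0.43 with it, against −0.04. When any further soleus library was also left out, in 9 ways, Psmd8 kept an adjusted p under 0.05 in 4, Psmc2 and Psmc5 in 2 each, Psmb5 in 1 and Psmc1 in 0, with adjusted p of at most 0.127. These calls therefore stand near the threshold, while their log2 fold changes stayed between −0.50 and −0.28 in those 9 fits.

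The direction depended on how libraries were scaled. With library totals in place of TMM factors, the median of all genes moved to 0.31 and that of the 48 to 0.07, so that 19 of the 48 were below 0, against 46 with TMM factors (53.1% of all genes) and 43 without library 4. Relative to the median of all genes, the 48 were lower under each of 43 alternatives, by −0.46 to −0.12, with −0.39 as given. Psmb5, Psmc1, Psmc2, Psmc5 and Psmd8 were each below 0 in all 34 alternatives run on them, but their size varied. The values nearest 0 were −0.34 for Psmb5, −0.24 for Psmd8, −0.15 for Psmc2, −0.05 for Psmc5 and −0.02 for Psmc1. Only the sign was thus shared by all alternatives.

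By role, without library 4, all 7 alpha subunits were below 0, with log2 fold changes of −0.19 to −0.03 and none called. All 11 Psmd subunits were below 0, from −0.36 to −0.07, and 1 was called. The assembly chaperones among the Psmd genes lay between −0.12 and 0.11, with no call. Of the 10 beta subunits 6 were below 0, from −0.34, and 4 above, up to 0.58. The 4 chaperones of the core were below 0, from −0.21 to −0.02, with no call, and Psmg1 averaged 18.9 ± 2.23 CPM (SD, n = 5) in ischemic soleus and 20.6 ± 2.39 CPM (n = 4) in sham soleus. With all libraries the ranges were −0.40 to −0.00 for the alpha subunits, −0.83 to −0.10 for the Psmd subunits, −1.48 to 0.05 for the beta subunits and −1.16 to −0.34 for the chaperones of the core, with no call.

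**Figure D3:**
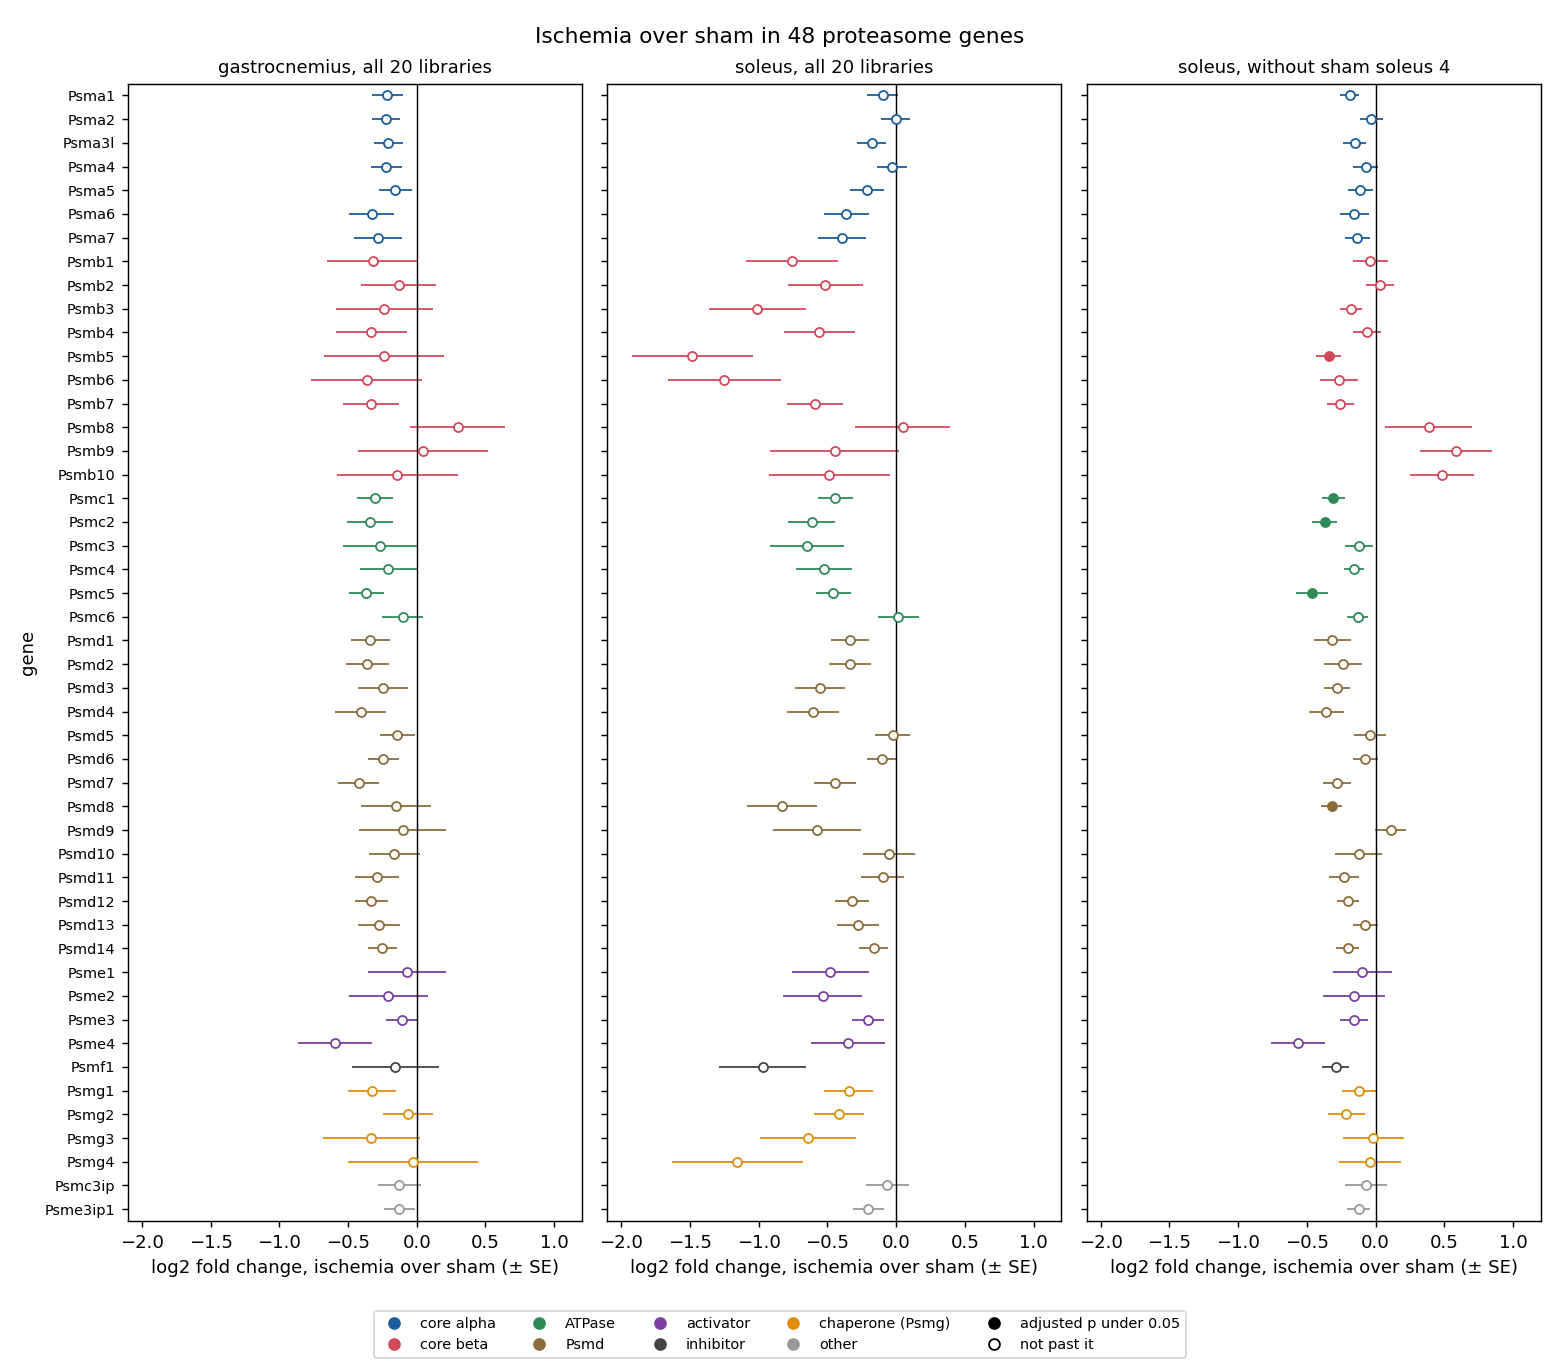
Log2 fold change of ischemia against sham for each of the 48 proteasome genes with the standard error as a bar, coloured by role, in gastrocnemius and in soleus with all 20 libraries and in soleus without sham soleus 4; filled points passed the test (adjusted p under 0.05). The 5 filled points are Psmc1, Psmc2, Psmc5, Psmd8 and Psmb5 in soleus without that library, and no point is filled in the panels of all 20 libraries.

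The beta subunits above 0 in ischemic soleus were led by the interferon-inducible ones, none of which passed the test. Psmb8 had 6.22, 5.49, 4.27, 8.06 and 4.52 CPM in ischemic soleus, against 4.81, 3.71, 3.26, 10.3 and 5.71 CPM in sham soleus. Psmb9 had 1.96, 2.53, 1.93, 3.25 and 2.01 CPM in ischemic soleus, against 1.80, 1.37, 1.84, 9.88 and 1.22 CPM in sham soleus. Psmb10 had 5.09, 3.53, 3.72, 6.26 and 4.02 CPM in ischemic soleus, against 3.53, 2.74, 2.89, 19.0 and 3.78 CPM in sham soleus. In all 3 genes the highest value was that of sham soleus 4. Without that library the ischemic libraries of Psmb9 were all above the sham ones, and those of Psmb8 and Psmb10 overlapped.

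Without library 4 the log2 fold changes were 0.39 for Psmb8 (SE 0.31, edgeR adjusted p = 0.454), 0.58 for Psmb9 (SE 0.26, adjusted p = 0.160) and 0.48 for Psmb10 (SE 0.23, adjusted p = 0.190). With all libraries Psmb8 was at 0.05 (adjusted p = 0.944), Psmb9 at −0.45 (adjusted p = 0.567) and Psmb10 at −0.49 (adjusted p = 0.499), so that 1 library turned the direction of Psmb9 and Psmb10. Their standard counterparts beside Psmb5 were Psmb6, with caspase-like activity, and Psmb7, with trypsin-like activity. Psmb6 had 32.7, 31.6, 34.2, 40.2 and 30.4 CPM in ischemic soleus, against 42.4, 38.2, 40.1, 240.0 and 42.1 CPM in sham soleus. Psmb7 had 89.2, 95.6, 96.1, 98.8 and 95.6 CPM in ischemic soleus, against 123, 115, 111, 262 and 105 CPM in sham soleus. The values of Psmb7 did not overlap between groups, and those of Psmb6 did through the ischemic library at 40.2 CPM. Neither passed, with log2 fold changes without library 4 of −0.27 for Psmb6 (adjusted p = 0.226) and −0.26 for Psmb7 (adjusted p = 0.112). With all libraries these were −1.25 for Psmb6 (adjusted p = 0.0762) and −0.59 for Psmb7 (adjusted p = 0.0816).

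A ratio within each library does not depend on the scaling between libraries. The summed FPKM of Psmb8, Psmb9 and Psmb10 was 6.27%, 5.27%, 4.48%, 7.22% and 4.85% of that of Psmb5, Psmb6 and Psmb7 in ischemic soleus. In sham soleus it was 3.46%, 2.93%, 3.02%, 3.17% and 3.91%, library 4 being the 3.17%. All ischemic soleus libraries were above all sham ones, library 4 included, with means of 5.62% ± 1.12 (SD, n = 5) in ischemic soleus and 3.30% ± 0.397 (n = 5) in sham soleus. The interferon-inducible subunits thus remained a small part of the catalytic transcripts in both. Of the 3 pairs, Psmb9 over Psmb6 was separated between the groups, at 2.63% to 3.80% in ischemic soleus and 1.35% to 2.15% in sham soleus. That separation was the same without library 4. Psmb8 over Psmb5 was 5.19% ± 1.33 in ischemic soleus and 2.71% ± 1.13 in sham soleus (3.13% ± 0.739 without library 4), and Psmb10 over Psmb7 was 8.10% ± 2.00 in ischemic soleus and 6.36% ± 3.43 in sham soleus. Both pairs overlapped, Psmb10 over Psmb7 through library 4 alone: without it that pair was 4.06% to 6.14% in sham soleus, against 6.29% to 10.8% in ischemic soleus, and did not overlap. No test was made of these ratios.

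In gastrocnemius the same ratio of summed FPKM was 5.33%, 2.76%, 2.71%, 3.85% and 3.52% in ischemic libraries, against 3.97%, 2.96%, 2.05%, 2.32% and 3.01% in sham libraries, and the groups overlapped. Psmb8 had 5.80, 3.91, 2.88, 3.14 and 4.89 CPM in ischemic gastrocnemius, against 5.53, 3.61, 1.99, 1.65 and 4.00 CPM in sham gastrocnemius. Psmb9 had 1.82, 1.47, 0.850, 1.66 and 1.52 CPM in ischemic gastrocnemius, against 2.02, 1.65, 1.27, 0.886 and 1.26 CPM in sham gastrocnemius. Psmb10 had 4.34, 2.70, 2.60, 4.38 and 3.83 CPM in ischemic gastrocnemius, against 6.07, 3.16, 3.46, 3.49 and 3.53 CPM in sham gastrocnemius. These 3 genes overlapped throughout, with log2 fold changes of 0.30, 0.05 and −0.14 and adjusted p of 0.964 for Psmb8, 0.999 for Psmb9 and 0.986 for Psmb10.

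**Figure D4:**
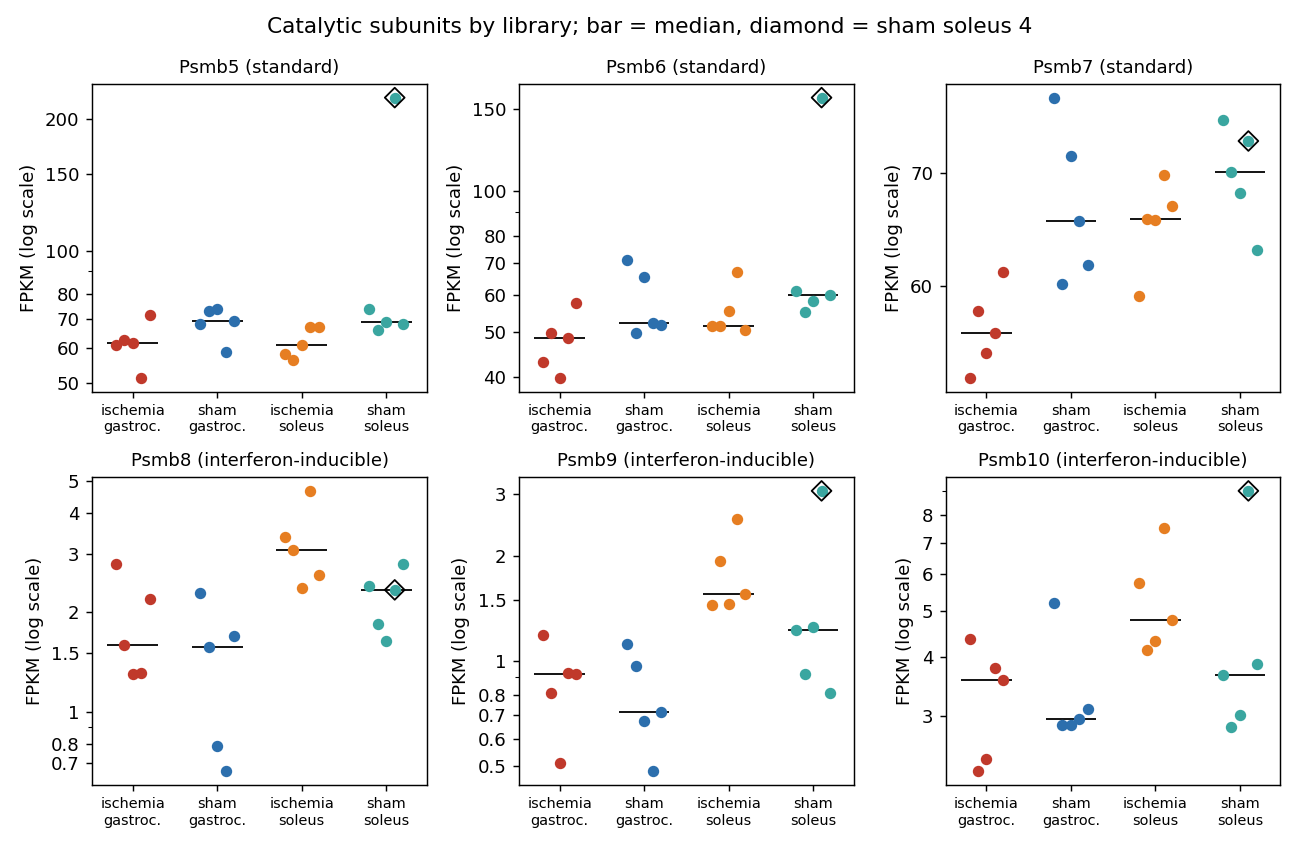
FPKM on a log axis of the 6 exchangeable catalytic subunits in each library, by group, with the median of each group as a line and sham soleus 4 ringed by a diamond. The interferon-inducible Psmb8, Psmb9 and Psmb10 lie far under Psmb5, Psmb6 and Psmb7 in all 4 groups, and their summed FPKM is 2.05% to 7.22% of that of the standard subunits.

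Marker sums of several cell types differed in the soleus comparison, in FPKM, which carries no TMM factors. By edgeR, 1 of the 6 fibroblast markers was called higher, or 2 without library 4. No macrophage, pan-leukocyte, endothelial or slow fibre marker was called in either fit. The summed FPKM of 8 macrophage markers was 86.5 to 152 in ischemic soleus and 25.6 to 97.6 in sham soleus (25.6 to 63.3 without library 4). Fibroblast markers, 6 in all, summed to 1060 to 2306 FPKM in ischemic soleus and 199 to 542 FPKM in sham soleus (371 to 542 without library 4). Pan-leukocyte markers summed to 11.02 to 20.96 FPKM in ischemic soleus and 4.81 to 8.76 FPKM in sham soleus, and 5 endothelial markers to 54.7 to 81.1 FPKM in ischemic soleus and 15.1 to 46.7 FPKM in sham soleus (36.1 to 46.7 without library 4). Erythrocyte markers overlapped, at 225 to 887 FPKM in ischemic soleus and 277 to 683 FPKM in sham soleus (277 to 415 without library 4). All 8 lymphocyte markers stayed under 1 FPKM in every library, and none was at 0 in all of them. The 7 slow fibre markers summed to 27365 to 32589 FPKM in ischemic soleus and 35076 to 48962 FPKM in sham soleus (35076 to 37365 without library 4). The part of these other cells in the lower particle genes and in the higher share of Psmb8, Psmb9 and Psmb10 was not tested.

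The activators open the core without the regulatory particle. Psme1 and Psme2, the interferon-inducible PA28 pair, overlapped between groups in both muscles. Psme1 had 30.4, 33.9, 32.8, 31.8 and 37.4 CPM in ischemic soleus, against 36.3, 38.7, 31.5, 89.6 and 35.6 CPM in sham soleus. Psme2 had 14.7, 22.5, 17.9, 18.2 and 23.2 CPM in ischemic soleus, against 23.4, 24.9, 16.2, 53.9 and 21.7 CPM in sham soleus. Neither passed the test, with log2 fold changes without library 4 of −0.10 for Psme1 (adjusted p = 0.808) and −0.16 for Psme2 (adjusted p = 0.702), against −0.48 (adjusted p = 0.275) for Psme1 and −0.53 (adjusted p = 0.234) for Psme2 with it. In gastrocnemius Psme1 had 25.6, 50.2, 27.1, 28.03 and 45.9 CPM after ischemia, against 37.1, 55.8, 26.5, 27.4 and 38.8 CPM after sham, and Psme2 had 15.8, 25.9, 15.8, 18.2 and 27.5 CPM, against 23.7, 36.1, 19.3, 15.2 and 24.8 CPM after sham.

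Psme4, which encodes the PA200 activator, had 173, 173, 197, 151 and 186 CPM in ischemic soleus, against 252, 295, 265, 82.6 and 228 CPM in sham soleus, where library 4 was the lowest at 82.6 CPM. Without that library the groups did not overlap, but the log2 fold change, −0.56 (SE 0.19, edgeR adjusted p = 0.0805), did not pass; with it the value was −0.35 (adjusted p = 0.417). In gastrocnemius Psme4 had 206, 338, 289, 241 and 236 CPM after ischemia, against 271, 309, 481, 589 and 332 CPM after sham, a log2 fold change of −0.60 (SE 0.27, adjusted p = 0.799). Psme3, the nuclear PA28 gamma activator, stayed close between groups, with 43.9, 51.7, 49.9, 38.2 and 49.1 CPM in ischemic soleus, against 53.0, 54.3, 50.3, 60.6 and 50.0 CPM in sham soleus. In gastrocnemius it had 41.2, 51.5, 44.7, 43.8 and 44.0 CPM after ischemia, against 46.9, 43.5, 53.6, 54.7 and 43.8 CPM after sham. Its log2 fold changes of −0.16 in soleus without library 4 (adjusted p = 0.326), −0.20 with it (adjusted p = 0.257) and −0.11 in gastrocnemius (adjusted p = 0.957) did not pass.

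Psmf1, the PI31 protein first described as an inhibitor of the core, had 17.6, 23.3, 21.3, 19.0 and 21.5 CPM in ischemic soleus, against 24.5, 25.4, 25.0, 101 and 25.4 CPM in sham soleus. All ischemic libraries were below all sham libraries, and the log2 fold change of −0.29 without library 4 (SE 0.10, adjusted p = 0.0762) did not pass, nor did that of −0.97 with it (SE 0.32, adjusted p = 0.0747). In gastrocnemius Psmf1 had 20.5, 22.6, 19.9, 22.3 and 21.4 CPM after ischemia, against 26.1, 20.01, 27.3, 21.7 and 23.7 CPM after sham, with an overlap of the groups.

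In gastrocnemius the fitted log2 fold changes of 46 of the 48 proteasome genes were below 0 after ischemia (50.6% of all genes were), and none passed the test. With all 20 libraries edgeR called 0 of the 48, and 0% of all genes tested. At an unadjusted p under 0.05, 11 were lower (1.88% of all genes) and none higher; without sham soleus 4, which enters this comparison through the estimates shared by all groups, 0 were called (0.0513% of all genes) and 29 were lower at that p (7.68% of all genes), with a smallest adjusted p of 0.108. DESeq2 called 0 with all libraries (0.0171% of all genes as lower), with 16 lower at an unadjusted p under 0.05 (3.04% of all genes), and 6 without sham soleus 4 (0.453% of all genes as lower). The limma-voom fit with quality weights called 18 as lower, against 1.98% of all genes. The calls in gastrocnemius thus depended on the tool. The median log2 fold change of the 48 was −0.24, against −0.00 over all genes, and relative to all genes it stayed between −0.29 and −0.19 in 43 alternatives.

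The 3 members with the smallest p in gastrocnemius were Psmc5, the non-ATPase subunit Psmd7 and the non-ATPase subunit Psmd12. Psmc5 had 80.3, 134, 105, 111 and 119 CPM after ischemia, against 149.8, 120.2, 149.9, 155 and 133 CPM after sham, and its log2 fold change was −0.37 (SE 0.13, edgeR adjusted p = 0.728). Psmd7 had 76.5, 103, 89.2, 81.5 and 90.8 CPM after ischemia, against 109.6, 96.9, 131, 142 and 111 CPM after sham, a log2 fold change of −0.42 (SE 0.15, adjusted p = 0.728). Both overlapped through ischemic library 2, the highest of its group. Psmd12 had 109, 129, 103, 117 and 107 CPM after ischemia, against 143, 135, 143, 154 and 135 CPM after sham, with no overlap and a log2 fold change of −0.33 (SE 0.12, adjusted p = 0.768).

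The libraries of 3 of the 48 genes did not overlap in gastrocnemius, with ischemia lower: Psmd12, Psma1 and Psmb3 (0.564% of all genes). Psma1, an alpha subunit, had 61.3, 71.0, 67.0, 65.9 and 62.6 CPM after ischemia, against 75.3, 72.1, 77.8, 79.1 and 76.0 CPM after sham. Psmb3, a beta subunit without catalytic activity, had 38.9, 37.4, 35.9, 32.05 and 36.9 CPM after ischemia, against 45.9, 39.0, 45.7, 42.2 and 40.3 CPM after sham. In soleus the ischemic libraries of these 3 genes also lay under the sham ones, for Psma1 once library 4, with 52.7 CPM the lowest of its group, was left out.

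The gastrocnemius libraries also differed among themselves within the groups. The number of the 48 genes above their own gastrocnemius median was 4, 35, 3, 10 and 13 in the ischemic libraries, against 46, 13, 42, 37 and 37 in the sham libraries. That count, too, was not made over all genes. The exceptions were ischemic library 2, with 35, and sham library 2, with 13. In fibre make-up the same libraries stood at the ends of their groups: the score of slow minus fast fibre markers, a difference of means of log2(FPKM + 1), was −8.38 in ischemic library 2, the lowest of its group, and −1.32 in sham library 2, the highest of its group. With that score as a covariate the median log2 fold change of the 48 in gastrocnemius was −0.23, and 0 were called. The part of fibre make-up in the differences between libraries was not tested. The markers of other cells overlapped between the gastrocnemius groups: the macrophage markers summed to 13.1 to 87.6 FPKM after ischemia and 16.1 to 69.4 FPKM after sham, the fibroblast markers to 197 to 1342 FPKM after ischemia and 176 to 1095 FPKM after sham, and the endothelial markers to 33.6 to 75.2 FPKM after ischemia and 18.2 to 42.3 FPKM after sham.

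The 5 genes called in soleus had log2 fold changes of −0.37 to −0.15 in gastrocnemius, and none was called. Psmb5 had 53.1, 64.7, 57.6, 52.2 and 67.1 CPM after ischemia, against 69.4, 70.2, 78.0, 60.8 and 69.2 CPM after sham. Psmb6 had 30.7, 42.2, 30.6, 40.3 and 44.2 CPM after ischemia, against 59.6, 39.2, 56.7, 44.3 and 42.3 CPM after sham. Psmb7 had 89.4, 116, 99.4, 111 and 111 CPM after ischemia, against 154, 112, 147, 132 and 119 CPM after sham. The groups overlapped for all 3 catalytic subunits. Psmc1 had 101, 135, 107, 112 and 123 CPM after ischemia, against 145, 129.6, 154, 148 and 139 CPM after sham. Psmc2 had 72.4, 98.6, 76.6, 85.6 and 91.2 CPM after ischemia, against 107, 99.9, 119, 114 and 97.0 CPM after sham. Psmd8 had 57.5, 53.0, 57.8, 58.0 and 59.1 CPM after ischemia, against 66.0, 57.4, 65.2, 69.0 and 59.2 CPM after sham. These 3 overlapped as well, and without sham soleus 4 their adjusted p were 0.14 for Psmc1, 0.126 for Psmc2 and 0.313 for Psmd8.

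Whether the response to ischemia differed between the muscles was tested as the difference of the 2 log2 fold changes, gastrocnemius minus soleus. None of the 48 genes passed, with 0% of all genes passing in the fit of all libraries and 0.00855% without sham soleus 4, and none reached an unadjusted p under 0.05 (6.48% of all genes did). DESeq2 called 0 of the 48 as well (0.0171% of all genes). The smallest p among positive differences were those of Psmb5 (1.24, SE 0.61, edgeR adjusted p = 0.721), Psmf1 (0.82) and Psmd8 (0.68), and among negative ones those of Psma2 (−0.22, adjusted p = 0.733), Psma4 (−0.19) and Psmd6 (−0.14). Without sham soleus 4 the median difference over the 48 was −0.06, against 0.01 over all genes, and with it 0.13, against 0.05. The difference for Psmb5 was then 0.10 (SE 0.12, adjusted p = 0.827).

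Between the muscles themselves, Psma3l and Psmc5 were called higher in gastrocnemius than in soleus in both ischemic and sham rats, with TMM factors. Psma3l, named as an alpha 3 subunit of the core, had 69.3, 90.4, 71.2, 77.4 and 72.9 CPM in ischemic gastrocnemius, against 62.1, 55.3, 52.7, 59.5 and 58.2 CPM in ischemic soleus. In sham rats it had 88.8, 77.4, 92.7, 90.9 and 89.96 CPM in gastrocnemius, against 63.1, 62.4, 66.5, 69.8 and 63.6 CPM in soleus. The muscles did not overlap in either condition. The log2 fold change was 0.41 in ischemia (SE 0.10, edgeR adjusted p = 0.0142) and 0.43 in sham (SE 0.10, adjusted p = 0.00480). For Psmc5, whose values are above, it was 0.49 in ischemia (SE 0.13, adjusted p = 0.0149) and 0.40 in sham (SE 0.13, adjusted p = 0.0264). Over 34 alternatives the ischemia value spanned 0.05 to 0.46 for Psma3l, losing the call in 5, and 0.08 to 0.61 for Psmc5, losing it in 6. The sham value spanned 0.02 to 0.48 for Psma3l, losing the call in 4. For Psmc5 it spanned −0.11 to 0.45, losing the call in 9 and turning direction in 1.

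The other call between the ischemic muscles was Psmd5, one of the assembly chaperones, with 16.8, 16.9, 14.2, 17.5 and 17.1 CPM in gastrocnemius, against 21.8, 23.6, 23.4, 19.2 and 20.6 CPM in soleus. The muscles did not overlap, and the log2 fold change was −0.40 (SE 0.13, edgeR adjusted p = 0.0468). The 3 calls were among 48 genes, while 12.6% of all genes tested were called between the ischemic muscles. Next in p within their direction were Psma7 at 0.51 (adjusted p = 0.0645), Psma2 at −0.17 (adjusted p = 0.312) and Psmb9 at −0.67 (adjusted p = 0.387), and none of the 3 passed. Without sham soleus 4, which holds no ischemic RNA and enters through the shared spread, 9 were called, 7 higher and 2 lower in gastrocnemius, against 32.4% of all genes. Those 9 were the 3 above with Psma7 (0.51, adjusted p = 0.000377), Psmb5 (0.35), Psmc3 (0.36), Psme4 (0.57), Psmd1 (0.35) and, lower, Psmb9 (−0.67, adjusted p = 0.0428).

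In sham rats 5 of the 48 were called between gastrocnemius and soleus, against 24.9% of all genes tested. Beside Psma3l and Psmc5, Psme4 was higher in gastrocnemius, at 0.82 on the log2 scale (SE 0.27, edgeR adjusted p = 0.0338). Lower were Psmd8, at −0.80 (SE 0.26, adjusted p = 0.0290), and the chaperone Psmg4, at −1.38 (SE 0.48, adjusted p = 0.0414); Psmb9, at −1.17 (adjusted p = 0.0795), did not pass. Psmg4 had 4.61, 3.16, 2.33, 3.76 and 2.73 CPM in sham gastrocnemius, against 4.49, 3.81, 3.10, 27.5 and 4.57 CPM in sham soleus, so its call came with the 27.5 CPM of library 4. Without that library Psmg4 was not called and 15 genes were, against 35.4% of all genes, and 14 of them were higher in gastrocnemius, against 18.3% of all genes.

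The largest of those 15 was Psma7, an alpha subunit, with 105, 89.2, 104, 115 and 106 CPM in sham gastrocnemius, against 74.6, 61.4, 61.2, 132 and 67.2 CPM in sham soleus, library 4 being the 132 CPM. Without it the muscles did not overlap, and the log2 fold change was 0.65 (edgeR adjusted p = 5.1e-05), against 0.39 (adjusted p = 0.109) with it. In ischemic rats Psma7 had 74.4, 100.1, 82.0, 83.9 and 87.6 CPM in gastrocnemius, against 59.6, 58.5, 62.5, 60.8 and 59.8 CPM in soleus. The next in size were Psme4 (0.61), the ATPase Psmc3 (0.51), Psma3l (0.46), the chaperone Psmg1 (0.43) and Psmc5 (0.39), all higher in gastrocnemius. Psmd8 was the member lower in gastrocnemius, at −0.29 (adjusted p = 0.00717). With the score of slow minus fast fibre markers as a covariate, none of the 48 was called between the muscles in either condition, and that score and the muscle go together across these groups, so the 2 cannot be told apart.

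**Figure D5:**
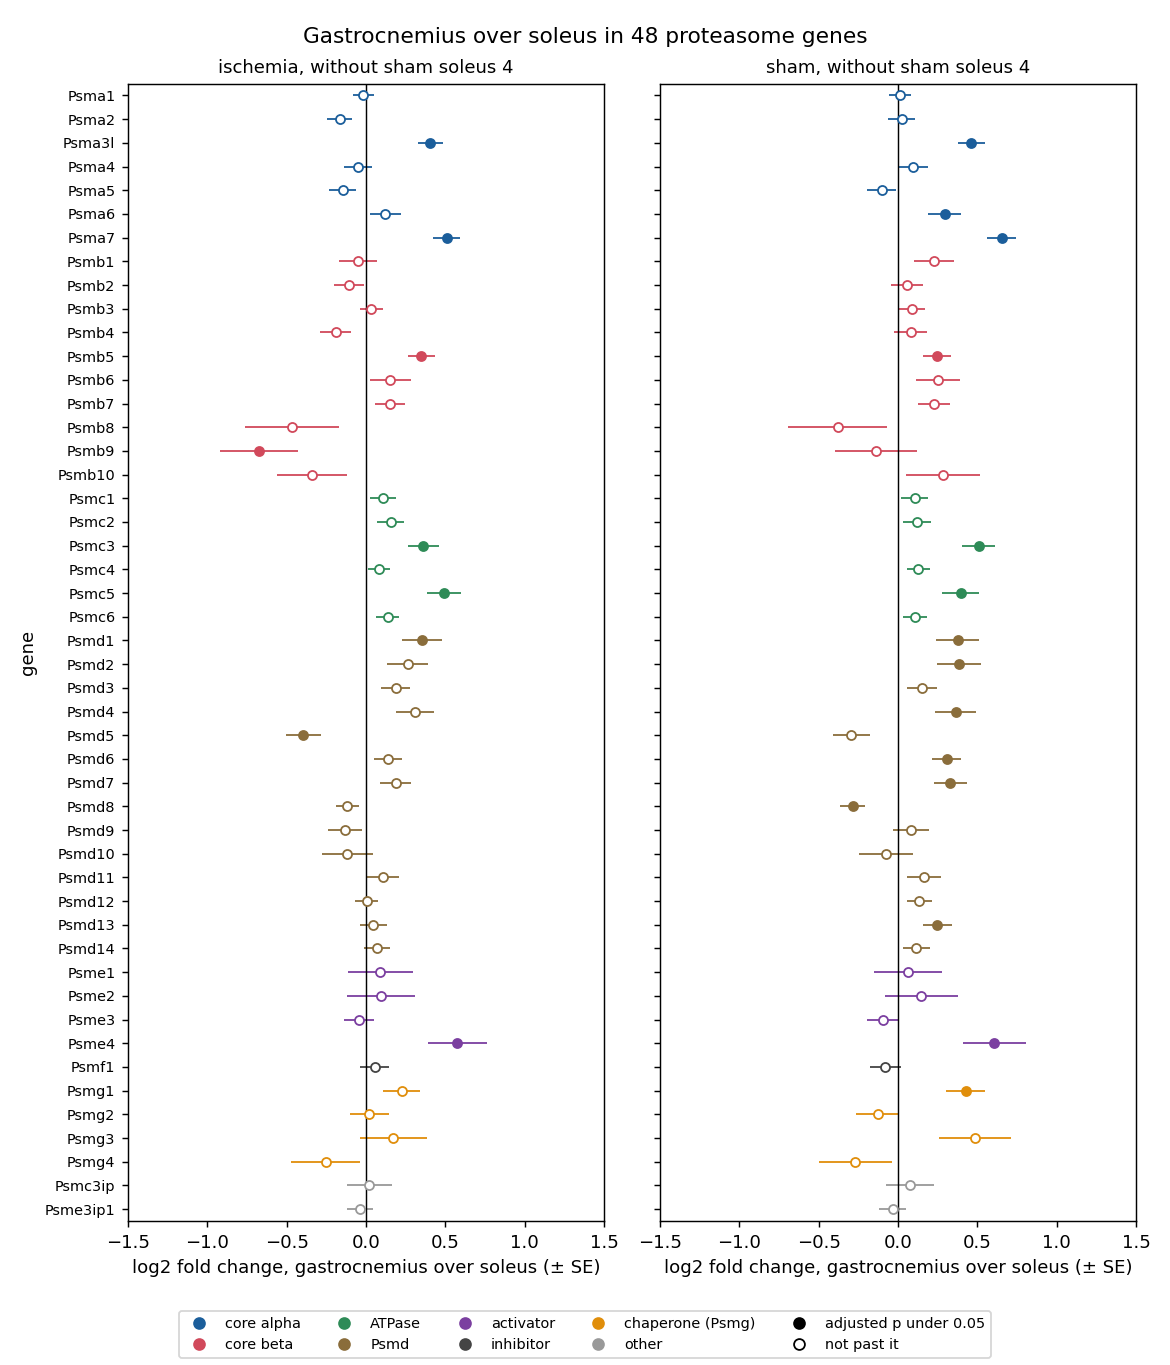
Log2 fold change of gastrocnemius against soleus for each proteasome gene (rows, coloured by role) in ischemic rats and in sham rats, with the standard error as a bar, fitted without sham soleus 4; filled points passed the test (adjusted p under 0.05). Psma7, Psma3l and Psmc5 lie above 0 in both conditions, at 0.39 to 0.65, and Psmd5 lies below 0 in ischemia at −0.40.

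Around the particle itself, the genes of its accessory factors leaned the same way as the subunits, without a call. Of 11 accessory genes tested (deubiquitinases, the ubiquitin receptor Adrm1, assembly and binding factors), 11 were below 0 in soleus and 11 in gastrocnemius, with median log2 fold changes of −0.24 in soleus, −0.20 there without library 4, and −0.26 in gastrocnemius. Of all genes, 53.1% were below 0 in soleus and 50.6% in gastrocnemius, with medians of −0.04 and −0.00. As lists, these and the ones below were fitted with TMM factors only. One more, Paaf1, was not analysed here. Pomp, which matures the core, averaged 17.3 ± 4.498 CPM in ischemic soleus and 30.9 ± 29.3 CPM in sham soleus (SD, n = 5 each), with a log2 fold change of −0.83 (edgeR adjusted p = 0.185), or −0.06 (adjusted p = 0.912) without library 4. The table also lists a copy of Pomp at 0 to 45.3 FPKM, so its level is uncertain. Of 9 shuttle and segregase genes, which carry ubiquitylated proteins to the proteasome, 8 were below 0 in soleus and 9 in gastrocnemius, with medians of −0.16 and −0.17 and no call.

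Among 10 regulators of proteasome transcription, 2 passed in soleus without library 4, where 6.15% of all genes did, and 0 with all libraries. Whether they bear on the subunit genes was not tested. Nfe2l1, the transcription factor that activates proteasome genes, was lower after ischemia by a log2 fold change of −0.52 (edgeR adjusted p = 0.0230), and Ngly1, the deglycosylase that matures it, by −0.29 (adjusted p = 0.0490). With all libraries Nfe2l1 was at −0.25 (adjusted p = 0.643), with 332 ± 40.1 CPM in ischemic soleus and 395 ± 181 CPM in sham soleus (SD, n = 5 each). In gastrocnemius Nfe2l1 averaged 289 ± 31.8 CPM after ischemia and 386 ± 55.0 CPM after sham, a log2 fold change of −0.42 that did not pass (adjusted p = 0.897).

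Of 10 ubiquitin ligases of muscle, Trim54 was called lower in soleus without library 4, at −0.59 (edgeR adjusted p = 0.0382), and none with all libraries. Without library 4, 3.52% of all genes were called lower. Trim63, the atrophy ligase MuRF1, averaged 105 ± 30.5 CPM in ischemic soleus and 164 ± 25.9 CPM in sham soleus (SD, n = 5 each), and its log2 fold change of −0.64 did not pass (adjusted p = 0.0638), nor did −0.63 without library 4 (adjusted p = 0.0541). In gastrocnemius Trim63 averaged 175 ± 15.1 CPM after ischemia and 262 ± 54.5 CPM after sham, a log2 fold change of −0.58 (adjusted p = 0.728). Fbxo32, the atrophy ligase atrogin-1, averaged 112 ± 27.5 CPM in ischemic gastrocnemius and 242 ± 218 CPM in sham gastrocnemius, where 1 library stood far above the others, a log2 fold change of −1.11 (adjusted p = 0.799). In soleus Fbxo32 was at −0.23 (adjusted p = 0.799), or −0.51 (adjusted p = 0.409) without library 4. In library 4 it was at 1.77 FPKM, against 33.8 to 39.7 FPKM in the other sham soleus libraries. Both ligases thus had lower fitted values after ischemia in both muscles, and neither passed.

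Of 7 antigen processing and interferon genes tested, none was called after ischemia. Of all genes, 1.03% were called in soleus (6.15% without library 4) and 0% in gastrocnemius. In gastrocnemius 7 of 7 were above 0, with a median log2 fold change of 0.28, and in soleus 5 of 7, with a median of 0.10, or 6 of 7 with a median of 0.29 without library 4. Of all genes, 50.6% were below 0 in gastrocnemius and 53.1% in soleus, or 51.6% there without library 4. Between the muscles, with all libraries, 24.9% of all genes were called in sham rats and 12.6% in ischemic rats. Between the sham muscles B2m was lower in gastrocnemius at −1.20 (edgeR adjusted p = 0.0132; −0.80 without library 4), as was Tapbp at −0.87 (adjusted p = 0.0294), while the peptidase Erap1 was higher at 0.57 (adjusted p = 0.0468; 0.41 without library 4). From the other lists, genes called higher in gastrocnemius than in soleus in both conditions were Ecpas, which binds the proteasome, at 1.11 in ischemia and 1.18 in sham, Ddi2, the protease that activates Nfe2l1, at 0.92 in ischemia and 1.57 in sham, and Trim63, at 0.73 in ischemia and 0.68 in sham. Ubqln4, a shuttle, was lower in both, at −0.69 in ischemia and −1.15 in sham. Without library 4 the values in sham rats were 0.95 for Ecpas, 1.40 for Ddi2, 0.68 for Trim63 and −1.03 for Ubqln4, and all 4 passed. In sham rats alone Ufd1 (0.46), Fbxo32 (1.39) and Trim32 (0.64) passed as higher, and Trim55 (−0.49), Maff (−1.80) and 1 of the 2 entries named Rps27a (−1.77) as lower, in the fit with all libraries; the other Rps27a entry, at 0.29, did not pass (adjusted p = 0.630). Without library 4, Maff, Trim55 and Tapbp did not pass.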

How the data were processed

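Poly(A) RNA of 20 muscle libraries was sequenced from both ends with strand kept, per the labels' protocols. The deposited table gives, per gene and library, an expected count, which per the file headers is not scaled between libraries and here is a whole number, and an FPKM value, scaled by the authors for length and depth. Small counts pile up at multiples of 4 (28.3% to 36.5% of those from 1 to 40, by library), so a count may not be 1 fragment. The sources used here do not give the aligner, counting program, genome build or annotation.

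Genes with at least 1 FPKM in 5 of 20 libraries were tested (11693). Counts were fitted with edgeR 4.0.16 (TMM factors, robust quasi-likelihood, 1 term per group, all 20 libraries, R 4.3.3), two-sided, with Benjamini-Hochberg adjustment over all genes tested and calls at an adjusted p under 0.05. The standard error is the log2 fold change divided by the square root of F. Medians over the 48 genes carry no test. Alternatives were DESeq2 1.42.0, limma 3.58.1 (voom with quality weights; log2(FPKM + 1) and log2(FPKM + 0.1)), other scalings and filters, the compared groups alone, a fibre score, a replicate block and leaving out each library. Depth was 53.6 to 85.4 M counts per library; precision is taken from the spread between libraries. The scripts were tested on simulated data. Promoters are from RefSeq, GRCr8, matched by symbol.

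Members and gene lists were chosen with earlier results of these data known. Values per library are given for the exchangeable catalytic subunits, the activators, Psmf1 and the called members of each comparison (at most 6 per direction); where fewer than 3 were called in a direction, the 3 with the smallest p are named. Psma1 and Psmb3 were named after their values were seen. The alternatives that combine a tool or a further left-out library with leaving out sham soleus 4, and the one that adds the counts of near-identical copies, were chosen after seeing the data. Some genes of the pathway lists are not reported here.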

Additional observations from a re-analysis of the deposited data

Results flagged for a closer look

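The highest or lowest library was set against the others of its group for the 23 proteasome genes described by library, and for the ratio of inducible to standard catalytic subunits, 96 groups of 5 in all, and 21 lay farther out than Dixon's 95% limit for 5 values, 0.71 of the group's range. Chance alone passes that limit in about 1 of 20 groups. Of the 21, 17 were in sham soleus 4. All but 1 of these were the highest of their group: Psma7 with 132 CPM, Psmb3 with 196 CPM, Psmd7 with 151 CPM, Psmd12 with 186 CPM, Psmb5 with 413 CPM, Psmb6 with 240.0 CPM, Psmb7 with 262 CPM, Psmb9 with 9.88 CPM, Psmb10 with 19.0 CPM, Psme1 with 89.6 CPM, Psme2 with 53.9 CPM, Psmf1 with 101 CPM, Psmc1 with 198 CPM, Psmc2 with 189.8 CPM, Psmd8 with 241 CPM and Psmg4 with 27.5 CPM. Psma1, with 52.7 CPM, was the lowest of its group there. The others were spread over 4 gastrocnemius libraries. Psmb10 had 6.07 CPM in sham gastrocnemius 1, above its group. Psmd8 had 53.0 CPM in ischemic gastrocnemius 2, Psma3l 77.4 CPM in sham gastrocnemius 2 and Psmd5 14.2 CPM in ischemic gastrocnemius 3, each below its group.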

How the results depend on the processing

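The number of the 48 genes called in soleus was 0 as given, 0 to 5 when 1 library was left out (5 without sham soleus 4), 2 with the fibre score, 10 with DESeq2 and 16 with limma-voom weights, or 11 and 17 with those tools without sham soleus 4. The median was −0.43, or −0.47 to −0.13 with 1 library left out, sham soleus 4 with or without a further one among them, −0.14 with voom weights, 0.0685 with library totals, 0.0783 on log2(FPKM + 1), 0.0795 on log2(FPKM + 0.1), and −0.16 (DESeq2) and −0.14 (voom) without sham soleus 4. In gastrocnemius 0 were called, and 18 with voom weights, or 6 (DESeq2) and 17 (voom) without sham soleus 4; leaving out 1 library gave 0 throughout and medians of −0.28 to −0.19. The difference of the responses had 0 calls under every alternative run, with a median of 0.13, of −0.0910 to 0.19 with 1 or, beside sham soleus 4, 2 libraries left out, of −0.23 with library totals and of −0.23 and −0.26 on the FPKM scales. Between sham muscles 5 were called, or 1 to 15 with 1 library left out, 2 without a filter, 1 with the compared groups alone, 15 with voom weights, 3 on log2(FPKM + 0.1), 0 with the fibre score, and 15 (DESeq2) and 16 (voom) without sham soleus 4, the median lying at −0.16 to 0.12 with 1 library left out. Between ischemic muscles 3 were called, or 0 to 9 with 1 library left out, 5 with DESeq2, 7 with library totals and with the compared groups alone, 12 with voom weights, 11 and 10 on the FPKM scales, 0 with the fibre score, and 10 (DESeq2) and 12 (voom) without sham soleus 4; the median of 0.07 became −0.28 with library totals, −0.28 and −0.29 on the FPKM scales and −0.0447 with the fibre score, and 0.02 to 0.13 with 1 library left out. Psmb9 and Psmb10 in soleus turned to 0.31 and 0.25 with library totals, 0.54 and 0.43 with voom weights, 0.24 and 0.28 on log2(FPKM + 1), 0.41 and 0.34 on log2(FPKM + 0.1), 0.58 and 0.48 without sham soleus 4, and 0.55 and 0.44 with voom weights without it; with 1 library left out they spanned −0.66 to 0.58 and −0.68 to 0.48, and Psmb8 −0.11 to 0.39. In gastrocnemius Psmb9 spanned −0.0812 to 0.21 and Psmb10 −0.23 to 0.0667 with 1 library left out, and Psmb9 was −0.0464 with the fibre score and −0.0305 with the replicate block. With the fibre score Psmc5 was −0.11 and Psme4 −0.26 between sham muscles. The log2 ratio of inducible to standard subunits moved from −4.18 to −3.83 in ischemic soleus and from −4.93 to −4.55 in sham soleus on CPM. Same-numbered libraries of 2 groups correlated at −0.494 to 0.464 and not all above 0.1, so the numbers were not used to pair libraries; between the ischemic muscles the values were 0.00389 to 0.423, and 3 of 5 libraries correlated best with their own number. With the replicate block 0 were called in soleus and in gastrocnemius and 1 between the muscles in sham and in ischemia. The cause of these changes was not tested.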
